A study of Homo sapiens with 23 samples.

Results

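ATP-binding cassette (ABC) genes were followed across MCF10A-ER-Src cells that were being driven toward transformation, with and without a knockdown of STAT3. The members were all genes with a symbol made of ABC, a subfamily letter from A to G and a number, taken from probe sets that the array annotation assigns to exactly 1 gene. This rule, which uses no measured value, found 42 genes with 96 probe sets, out of 19775 genes and 54675 probe sets on the array. Each gene is shown by its main probe set, the one with the highest mean log2 signal over all arrays.

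MCF10A-ER-Src is a non-transformed human mammary epithelial line whose v-Src oncoprotein carries a hormone-binding piece of the estrogen receptor and is switched on by tamoxifen. Total RNA was measured on 23 Affymetrix arrays in 8 groups. All cells came from this 1 engineered line, were grown in medium with charcoal-stripped horse serum, EGF, hydrocortisone, cholera toxin and insulin, and received 25 nM of an siRNA pool before treatment. The siSTAT3 cells received a pool against STAT3 and the siNEG cells a non-targeting pool, which the study also calls siSCM. TAM cells were then given 1 µM 4-hydroxytamoxifen and EtOH cells the ethanol vehicle, for 4 or 24 h. Every group had 3 arrays except siSTAT3 TAM at 24 h, which had replicates 2 and 3, and replicate 1 of this group was not analysed here. The methods call the arrays biological replicates, so the errors below describe the spread between cultures of 1 line.

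Array medians lay between 73.5 and 85.3 units, and 44.6 to 46.9% of the probe sets on an array exceeded 100 units. The target of the knockdown, STAT3, averaged 400.1 ± 57.5 units in siSTAT3 TAM cells at 24 h (SD, n = 2) and 6119 ± 569.7 units in siNEG TAM cells at 24 h (SD, n = 3), and the siSTAT3 mean was below the siNEG mean in every pair of groups. The basal mammary genes KRT5 and KRT14 and the other basal markers measured (4 of 4) were above 100 units, as were 6 of 7 luminal markers. These 6 include ESR1, the estrogen receptor gene. The v-Src construct carries a piece of this receptor, and whether the ESR1 probe set also reads the construct was not tested. Of 6 fibroblast genes only DCN and COL1A1 reached 100 units, of 5 immune genes only CD14 and of 4 endothelial genes only PECAM1, so that COL3A1, PTPRC and CDH5 stayed below this level in every group.

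ABC proteins bind and hydrolyse ATP to move substrates across membranes. Subfamily A mainly carries lipids, subfamily B carries peptides, drugs and bile compounds and includes several mitochondrial proteins, and subfamily C exports organic anions, often as glutathione or glucuronide conjugates. Subfamily D sits in peroxisomes and lysosomes, subfamilies E and F have no membrane-spanning part and act on ribosomes, and subfamily G carries sterols and drugs. In the mammary gland the family is best known through ABCG2, which secretes vitamins and drugs into milk, and through the drug efflux pumps ABCB1, ABCC1 and ABCG2 of breast tumours.

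Of the 42 genes, 23 had a mean of 100 units or more in at least 1 group and 20 of these in every group, while 19 were below 100 units in every group. A limma fit over all arrays, with p-values adjusted over all 54675 probe sets, called 14 genes at an adjusted p under 0.05 in at least 1 of 12 comparisons, 33.3% of the 42 genes against 33.3% of all genes. All 14 were among the 23 genes at 100 units or more. The main movement was at 24 h, where TAM raised ABCA1 at least 10.1-fold in siNEG cells and lowered 8 other genes, among them the drug and conjugate pumps ABCC2, ABCC3 and ABCG2. In siSTAT3 cells, with 2 TAM arrays at 24 h, 1 gene, ABCB6, passed the test at that time (2.75% of all genes). Of the genes called for TAM in siNEG cells at 24 h, ABCA1, ABCA12, ABCC2 and ABCA5 passed the interaction. For the others a difference between the TAM effects was not shown.

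The counts were as follows, each with the share of all 19775 genes that passed the same test. For the TAM effect in siNEG cells at 24 h, 9 of 42 genes passed (21.4%, against 15.4% of all genes). Of these 1 was higher with TAM (background 6.06%) and 8 were lower (background 9.31%), and the median log2 difference was -0.20 for the ABC genes and -0.042 for all genes. The difference between the ABC share and that of all genes was not tested. When only the arrays of a comparison were fitted, 3 of these 9 genes stayed called (ABCA1, ABCC2 and ABCG2).

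In siSTAT3 cells at 24 h, 1 gene was called, lower with TAM, against 2.75% of all genes called and 0.748% called lower, and 6 ABC genes had an unadjusted p under 0.05 (14.6% of all genes). With STAT3 silenced in the presence of TAM at 24 h, 9 genes were called (16.5% of all genes), 7 higher and 2 lower in siSTAT3 cells (backgrounds 9.72 and 6.77%), with a median log2 difference of 0.092 for the ABC genes and 0.030 for all genes. With only the arrays of the comparison fitted, ABCA1 and ABCA12 stayed called. This comparison and the TAM effect in siNEG cells share the 3 siNEG TAM arrays, so the values of a gene in both are given side by side and not as separate support. The interaction, which subtracts the TAM effect in siNEG cells from that in siSTAT3 cells, passed for 5 genes at 24 h (5.91% of all genes), 3 positive and 2 negative (backgrounds 3.42 and 2.49%), of which ABCA1, ABCA12 and ABCC2 stayed called with only those arrays fitted.

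Little was called at 4 h. None of the 42 genes passed for the TAM effect in siNEG cells (3.26% of all genes, 4 ABC genes at an unadjusted p under 0.05 against 14.2% of all genes), for the TAM effect in siSTAT3 cells (0.819%, 2 unadjusted against 10.1%) or for the interaction (0.521%, 1 unadjusted against 8.24%). The siSTAT3 effect at 4 h passed for 2 genes with TAM (9.29% of all genes) and 1 gene with EtOH (4.28%), and at 24 h with EtOH for 1 gene (2.86%, 10 ABC genes unadjusted against 13.9%). Between 24 and 4 h of EtOH, 5 genes changed in siNEG cells (12.3% of all genes), 4 higher and 1 lower at 24 h (backgrounds 6.82 and 5.52%). The same comparison in siSTAT3 cells gave 4 genes (13.4%), 3 higher and 1 lower at 24 h (backgrounds 8.14 and 5.28%).

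**Figure D1:**
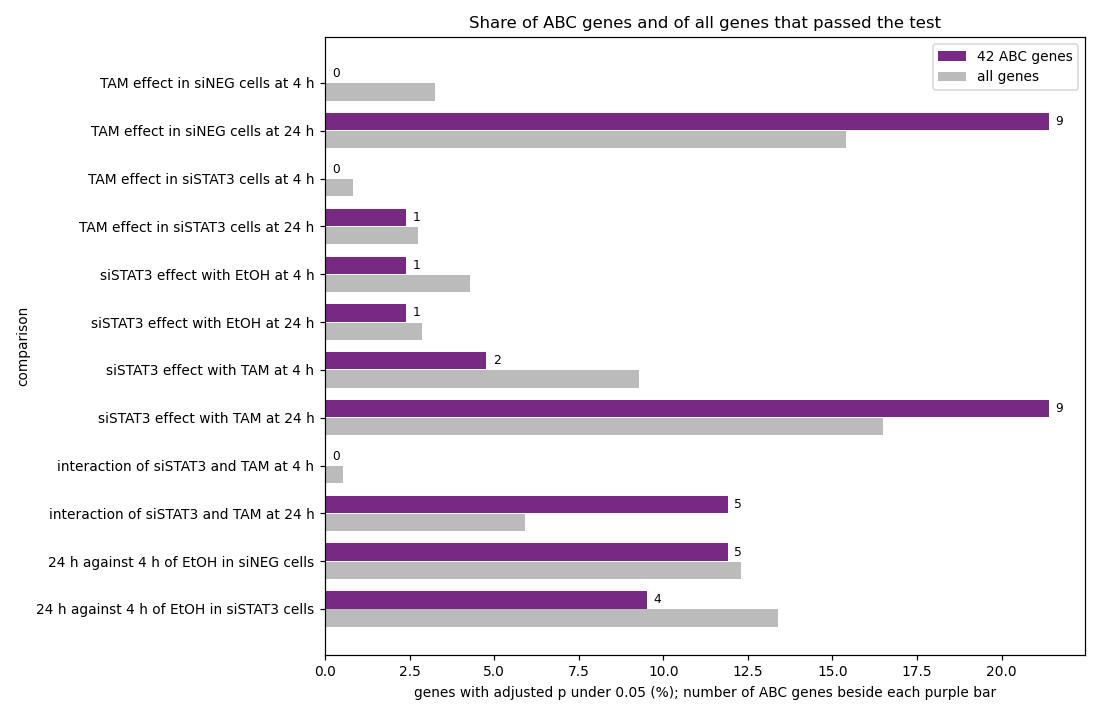
Percent of the 42 ABC genes (purple) and of all 19775 genes (grey) with an adjusted p under 0.05 in each of the 12 comparisons, with the number of ABC genes beside each purple bar. The ABC share was above that of all genes for TAM in siNEG cells at 24 h, for siSTAT3 with TAM at 24 h and for the 24 h interaction, and below it in the other comparisons, and these differences were not tested.

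Levels of marker genes moved with these groups at 24 h. The summed signal of the luminal markers was 33639 to 41441 units in siSTAT3 TAM cells, 30645 to 32956 in siSTAT3 EtOH cells, 22532 to 25210.0 in siNEG TAM cells and 27865 to 32402 in siNEG EtOH cells. That of the fibroblast markers was 2899.5 to 2946, 3099 to 3115, 6799.6 to 7846 and 5681 to 5941 units in the same order of groups, most of it from DCN. The endothelial markers summed to 397 to 419, 369.7 to 499, 301 to 329 and 457 to 533 units, with only PECAM1 at 100 units or more, and PECAM1 was lower with TAM in siNEG cells (log2 -1.15, adjusted p = 7.05e-05) and had a value of 0.041 in siSTAT3 cells (adjusted p = 0.970). The basal markers summed to 34729.6 to 39506, 36238 to 37169.6, 42917 to 44172 and 44999 to 47107 units, so both siSTAT3 groups were below both siNEG groups, and the immune markers to 665 to 836, 824 to 877, 867 to 902 and 976 to 1160.4 units. In RNA from whole cultures fewer cells of a type and less RNA per cell cannot be told apart, and the part of these marker levels in the ABC results was not tested. The ratio of the 3′ to the 5′ ACTB probe sets, a sign of RNA length, was 1.21 on both siSTAT3 TAM arrays at 24 h and 1.21 to 1.44 over all arrays, and its part was likewise not tested.

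**Figure D2:**
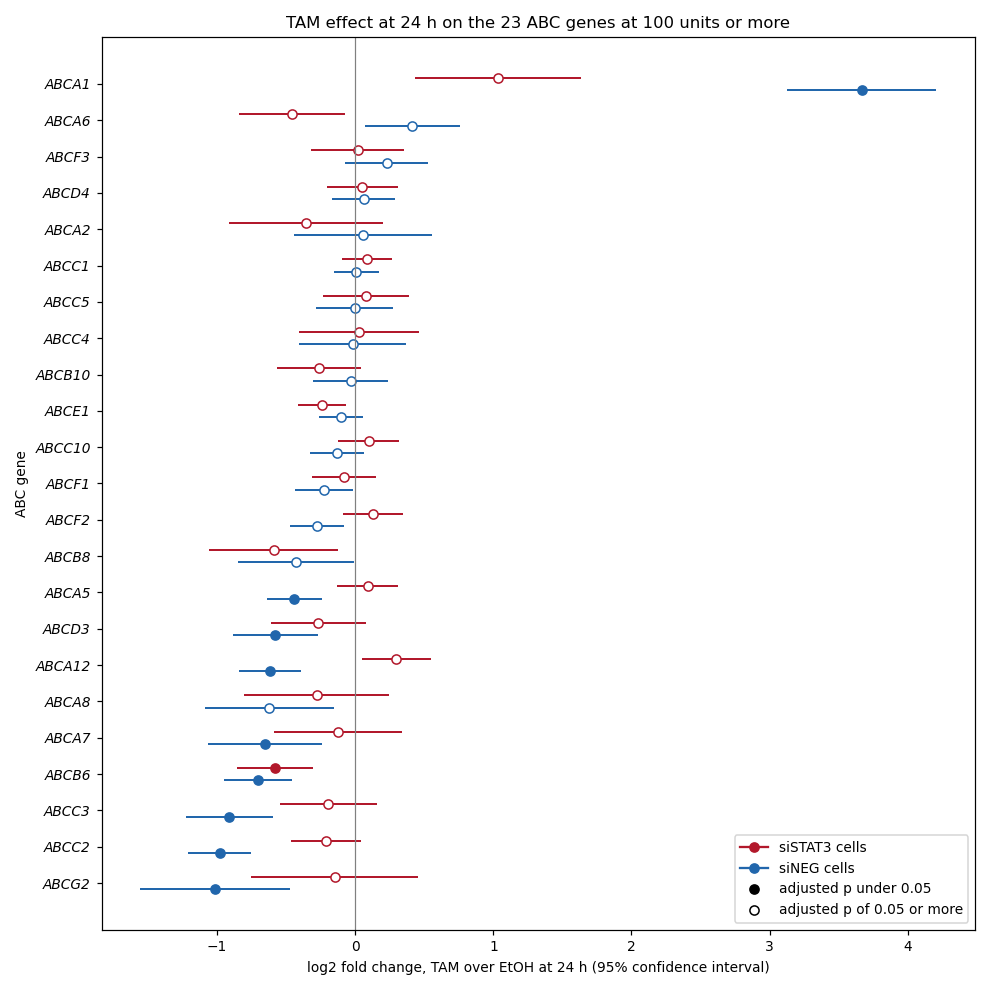
Log2 fold change of TAM over EtOH at 24 h for the 23 ABC genes at 100 units or more, with 95% confidence intervals, in siSTAT3 cells (red) and siNEG cells (blue). Filled points have an adjusted p under 0.05; ABCA1 stood alone on the right in siNEG cells, and ABCB6 was filled in both.

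The largest response was that of ABCA1, the pump on chromosome 9 that loads cholesterol and phospholipid onto apolipoprotein A-I and is a known target of the liver X receptors. It read 826, 1054 and 1176 units on the siNEG TAM arrays at 24 h, against 84.7, 68.6 and 85.7 units on the siNEG EtOH arrays. Every TAM array thus lay far above every EtOH array, and the difference passed the test (log2 3.67, SE 0.25, adjusted p = 2.35e-08). Since the EtOH arrays were below 100 units, its size is given as at least 10.1-fold, the mean of the TAM arrays on the log2 scale against that limit. In siSTAT3 cells at 24 h it read 72.6 and 71.0 units with TAM, against 28.1, 46.8 and 32.8 units with EtOH. These arrays did not overlap either, but the difference missed the threshold (log2 1.03, SE 0.28, adjusted p = 0.0824), and all of the siSTAT3 arrays were below 100 units.

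The TAM effect on ABCA1 was smaller in siSTAT3 cells than in siNEG cells, with an interaction of -2.64 (SE 0.38, adjusted p = 0.000338). Of the groups in it, only siNEG TAM was above 100 units, so the size of this value is uncertain. With TAM at 24 h, ABCA1 was at least 10.1-fold lower in siSTAT3 cells by the same limit (log2 -3.81, SE 0.28, adjusted p = 4.89e-08). It was also lower with EtOH at 24 h (log2 -1.17, SE 0.25, adjusted p = 0.0195), where all arrays were below 100 units. This EtOH call was lost without siSTAT3 EtOH replicate 1 (log2 -1.02, adjusted p = 0.109) or 3 (log2 -1.13, adjusted p = 0.0795), or without siNEG EtOH replicate 1 (log2 -1.13, adjusted p = 0.0785) or 3 (log2 -1.12, adjusted p = 0.0824). At 4 h the signals were 44.6, 50.5 and 42.8 units in siSTAT3 TAM cells, 27.3, 59.7 and 38.3 in siSTAT3 EtOH cells, 66.1, 59.2 and 71.3 in siNEG TAM cells and 39.2, 60.3 and 37.8 in siNEG EtOH cells. The siNEG groups overlapped at this time, and no 4 h comparison of ABCA1 passed the test. A further probe set of ABCA1 with a mean of 134 units gave a TAM effect in siNEG cells at 24 h of the same direction (log2 4.03, adjusted p = 1.73e-07), and an interaction that was again negative (log2 -3.04, adjusted p = 0.00100). The other 2 probe sets had means of 8.31 and 7.11 units. With the log2 signals of all 4 averaged, the interaction was lost (log2 -1.42, adjusted p = 0.192), as was the siSTAT3 effect with EtOH (log2 -0.63, adjusted p = 0.544), while the TAM effect in siNEG cells (log2 2.24, adjusted p = 0.000360) and the siSTAT3 effect with TAM (log2 -2.05, adjusted p = 0.00206) stayed called.

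ABCA12 moved the opposite way. This gene, lost in harlequin ichthyosis, encodes the protein that loads glucosylceramide into the lamellar granules of skin cells. It read 593 and 595 units in siSTAT3 TAM cells at 24 h, against 451, 478 and 523 in siSTAT3 EtOH cells, and 287, 259 and 253 units in siNEG TAM cells, against 442, 374 and 411 in siNEG EtOH cells. No 2 of these 4 groups overlapped, and the siNEG TAM arrays were the lowest. In siNEG cells ABCA12 was 1.54-fold lower with TAM (log2 -0.62, SE 0.10, adjusted p = 0.000484), whereas the value in siSTAT3 cells was above 0 without passing (log2 0.30, SE 0.12, adjusted p = 0.273). The difference between these effects passed the test (interaction 0.92, SE 0.15, adjusted p = 0.00151), and ABCA12 was 2.24-fold higher in siSTAT3 than in siNEG cells with TAM (log2 1.16, SE 0.12, adjusted p = 1.67e-06).

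ABCA12 also had the largest rise with time in EtOH among the called members. At 4 h it read 151, 207 and 183 units in siSTAT3 TAM cells, 180.5, 182 and 184 in siSTAT3 EtOH cells, 140.4, 156 and 144 in siNEG TAM cells and 169, 164 and 162 in siNEG EtOH cells. All 4 h arrays were below all 24 h arrays, and the EtOH difference was 2.65-fold in siSTAT3 cells (log2 1.41, SE 0.10, adjusted p = 1.78e-07) and 2.48-fold in siNEG cells (log2 1.31, SE 0.10, adjusted p = 5.53e-07). With TAM at 24 h, siNEG cells had ABCA12 signals between those of 4 h and those of 24 h of EtOH.

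ABCA5, ABCA6, ABCA8 and ABCA9 belong to a cluster of related lipid transporter genes on chromosome 17, and they did not move as a block. ABCA5, an endosomal and lysosomal protein linked to cholesterol handling, read 452 and 536 units in siSTAT3 TAM cells at 24 h, against 433, 444 and 515 in siSTAT3 EtOH cells, and 329, 289 and 313 units in siNEG TAM cells, against 453, 398 and 413 in siNEG EtOH cells. The siNEG TAM arrays were the lowest and did not overlap any other 24 h group. TAM lowered ABCA5 in siNEG cells (log2 -0.44, SE 0.090, adjusted p = 0.00317), and with TAM it was higher in siSTAT3 than in siNEG cells (log2 0.67, SE 0.10, adjusted p = 0.000185). The interaction passed narrowly (log2 0.53, SE 0.14, adjusted p = 0.0352) and was lost without any one of 7 of the 11 arrays (siNEG EtOH replicates 1 and 3, siNEG TAM replicates 2 and 3, siSTAT3 EtOH replicates 1 and 2 and siSTAT3 TAM replicate 3, all at 24 h), with adjusted p values of 0.0519 to 0.235. A second probe set with a mean of 40.5 units left no ABCA5 call in any comparison when both were averaged (adjusted p = 0.613 for TAM in siNEG cells).

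At 4 h ABCA5 read 752, 753 and 715 units in siSTAT3 TAM cells, 697, 669 and 644 in siSTAT3 EtOH cells, 612, 592 and 648 in siNEG TAM cells and 634, 624 and 574 in siNEG EtOH cells. All 4 h arrays were above all 24 h arrays, the reverse of ABCA12. The EtOH difference between 24 and 4 h was -0.53 in siSTAT3 cells (SE 0.090, adjusted p = 0.000800) and -0.54 in siNEG cells (SE 0.090, adjusted p = 0.000971).

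ABCA6, a lipid transporter of the same cluster with no settled substrate, read 144 and 97.7 units in siSTAT3 TAM cells at 24 h, against 149, 167 and 174 in siSTAT3 EtOH cells, and 318, 240.4 and 266 units in siNEG TAM cells, against 178, 200.0 and 242 in siNEG EtOH cells. The siSTAT3 TAM arrays were the lowest and the siNEG TAM arrays largely the highest, with 1 siNEG EtOH array inside the range of the siNEG TAM arrays. ABCA6 was 2.30-fold lower in siSTAT3 than in siNEG cells with TAM (log2 -1.20, SE 0.18, adjusted p = 0.000135), while neither TAM effect passed on its own (log2 -0.46, adjusted p = 0.273 in siSTAT3 cells and log2 0.41, adjusted p = 0.118 in siNEG cells). Its interaction was at the limit (log2 -0.87, SE 0.24, adjusted p = 0.0498) and was lost without any one of 8 of the 11 arrays, namely siNEG EtOH replicates 1 and 2, siNEG TAM replicates 1 and 3, all 3 siSTAT3 EtOH replicates and siSTAT3 TAM replicate 3, with adjusted p values of 0.0596 to 0.334. At 4 h its signals were 168, 143 and 158 units in siSTAT3 TAM cells, 178, 156 and 146 in siSTAT3 EtOH cells, 170.1, 134 and 169 in siNEG TAM cells and 157, 173 and 148 in siNEG EtOH cells, and these groups overlapped.

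ABCA8, whose product promotes cholesterol efflux, was a dim gene. It read 138 and 102 units in siSTAT3 TAM cells at 24 h, against 165, 129 and 139.7 in siSTAT3 EtOH cells, and 57.2, 60.7 and 75.2 units in siNEG TAM cells, against 109, 102 and 85.3 in siNEG EtOH cells. With TAM both siSTAT3 arrays were above the 3 siNEG arrays (log2 0.89, SE 0.24, adjusted p = 0.0224), but the call was lost without siSTAT3 TAM replicate 2 (log2 0.67, adjusted p = 0.219), siNEG TAM replicate 1 (log2 0.81, adjusted p = 0.0762) or siNEG TAM replicate 2 (log2 0.85, adjusted p = 0.0633). The TAM effect in siNEG cells missed the threshold (log2 -0.62, adjusted p = 0.0824). At 4 h ABCA8 read 109, 94.5 and 92.8 units in siSTAT3 TAM cells, 117, 93.4 and 123 in siSTAT3 EtOH cells, 96.6, 72.3 and 110.1 in siNEG TAM cells and 60.4, 112 and 101 in siNEG EtOH cells, all overlapping. ABCA9, also of this cluster, stayed between 26.8 and 53.6 units in group means. With TAM at 24 h, then, ABCA5 and ABCA8 were higher and ABCA6 lower in siSTAT3 than in siNEG cells.

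ABCA7, a phospholipid transporter involved in phagocytosis and a risk gene for Alzheimer's disease, read 216 and 333 units in siSTAT3 TAM cells at 24 h, against 274, 305 and 300.0 in siSTAT3 EtOH cells, and 169, 144 and 133 units in siNEG TAM cells, against 225, 275 and 205 in siNEG EtOH cells. The siNEG TAM arrays were below all other 24 h arrays. TAM lowered ABCA7 in siNEG cells (log2 -0.65, SE 0.19, adjusted p = 0.0344), and with TAM it was higher in siSTAT3 than in siNEG cells (log2 0.86, SE 0.21, adjusted p = 0.0124). Each call depended on single arrays. The TAM call was lost without siNEG EtOH replicate 1 or 2 or siNEG TAM replicate 2 or 3 (adjusted p 0.0727 to 0.151), and the siSTAT3 effect was lost without siSTAT3 TAM replicate 3 (log2 0.55, adjusted p = 0.262). At 4 h ABCA7 read 211, 240.0 and 153 units in siSTAT3 TAM cells, 239, 176 and 180.5 in siSTAT3 EtOH cells, 210.2, 166 and 182 in siNEG TAM cells and 167, 205 and 167 in siNEG EtOH cells, which overlapped throughout. ABCA2, an endosomal lipid transporter, had group means of 114 to 158 units and log2 differences of -0.41 to 0.35 over the 12 comparisons, and none passed the test.

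**Figure D3:**
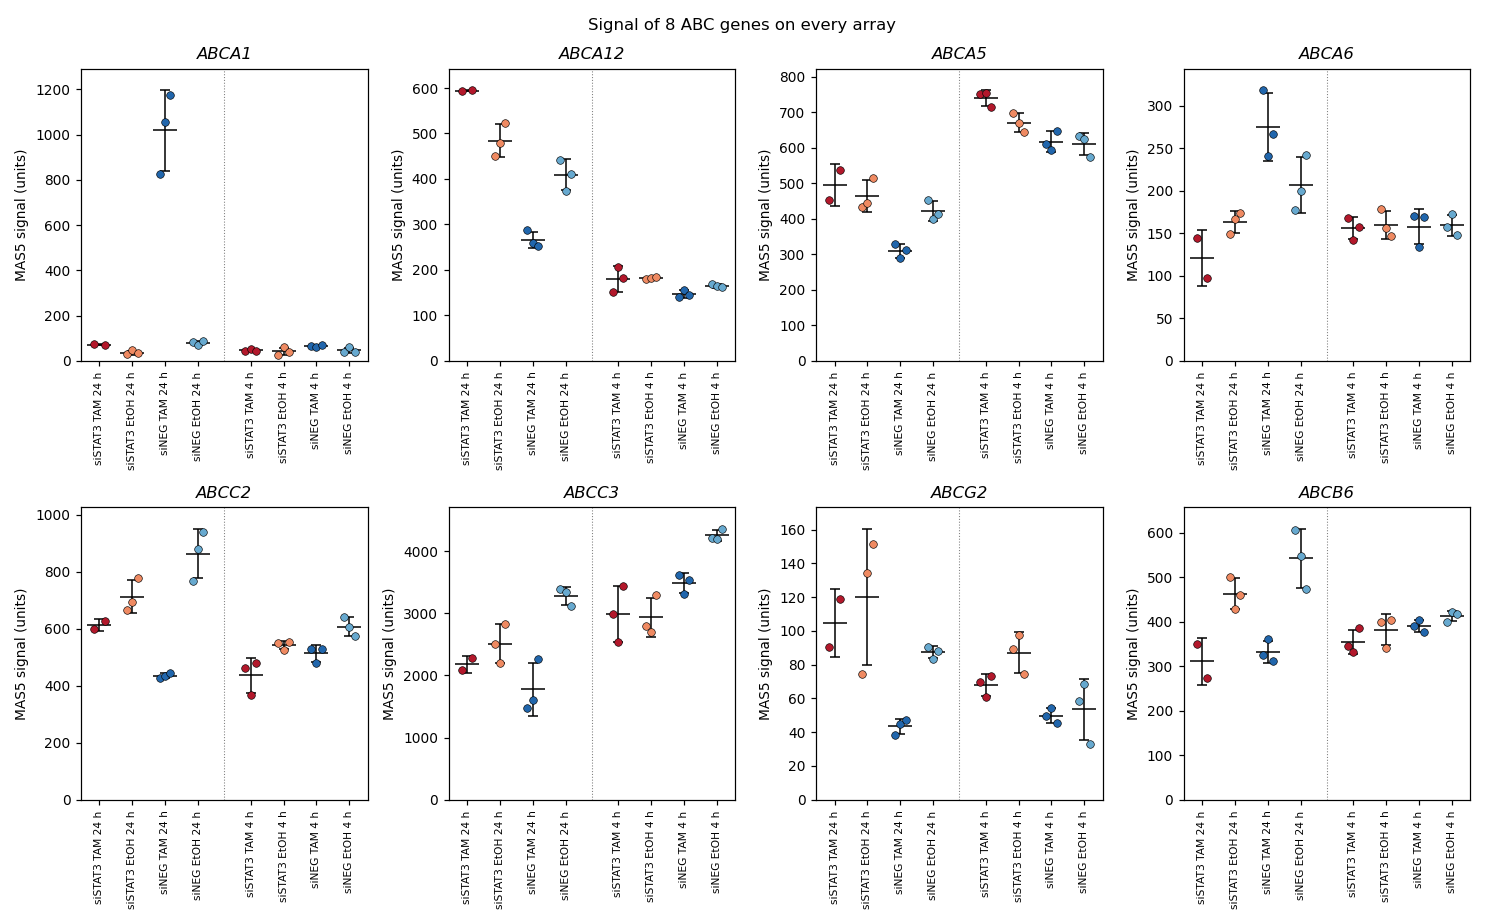
MAS5 signal of 8 ABC genes on every array (points), with the group mean and SD (lines), for the 4 groups at 24 h and the 4 groups at 4 h. ABCA1 was high only on the 3 siNEG TAM arrays at 24 h, where ABCA12, ABCA5, ABCC2, ABCC3 and ABCG2 had their lowest 24 h group means.

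Among the pumps for drugs and conjugates, ABCC2 and ABCC3 export glucuronide and glutathione conjugates, ABCC2 at the apical and ABCC3 at the basolateral face of epithelial cells. ABCC2 read 598 and 628 units in siSTAT3 TAM cells at 24 h, against 666, 692 and 777 in siSTAT3 EtOH cells, and 425, 436 and 446 units in siNEG TAM cells, against 769, 879.5 and 939 in siNEG EtOH cells. The groups did not overlap with TAM against EtOH in either kind of cell, and the gap was wider in siNEG cells, at 1.97-fold (log2 -0.98, SE 0.10, adjusted p = 3.83e-06), than in siSTAT3 cells, where the difference did not pass (log2 -0.21, SE 0.12, adjusted p = 0.506). The interaction passed (log2 0.77, SE 0.15, adjusted p = 0.00688), and ABCC2 was higher in siSTAT3 than in siNEG cells with TAM (log2 0.49, SE 0.12, adjusted p = 0.00805), a call that was lost without siSTAT3 TAM replicate 3 (log2 0.46, adjusted p = 0.0863).

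At 4 h ABCC2 read 464, 366 and 481 units in siSTAT3 TAM cells, 549, 525 and 553 in siSTAT3 EtOH cells, 529, 480.1 and 529.7 in siNEG TAM cells and 640.3, 605 and 575 in siNEG EtOH cells. The TAM arrays were below the EtOH arrays here too, in both kinds of cell, but neither difference passed after adjustment (log2 -0.32, adjusted p = 0.258 in siSTAT3 cells and log2 -0.24, adjusted p = 0.334 in siNEG cells). With EtOH, ABCC2 was higher at 24 than at 4 h, by 0.39 on the log2 scale in siSTAT3 cells (adjusted p = 0.0223) and by 0.50 in siNEG cells (adjusted p = 0.00446). The siSTAT3 call was lost without siSTAT3 EtOH replicate 1 or 2 of 4 h or replicate 2 or 3 of 24 h (adjusted p 0.0512 to 0.110).

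ABCC3 read 2085 and 2277 units in siSTAT3 TAM cells at 24 h, against 2504, 2196 and 2824 in siSTAT3 EtOH cells, and 1471, 1603 and 2260.3 units in siNEG TAM cells, against 3387, 3348 and 3120.4 in siNEG EtOH cells. In siNEG cells the TAM and EtOH arrays were well apart, a 1.88-fold reduction with TAM (log2 -0.91, SE 0.15, adjusted p = 0.000331), whereas they overlapped in siSTAT3 cells (log2 -0.20, SE 0.16, adjusted p = 0.735). The interaction missed the threshold (log2 0.72, SE 0.22, adjusted p = 0.0877). It was called with the filter on mean signal (adjusted p = 0.0249), the replicate block (adjusted p = 0.0467), a robust prior with an intensity trend (adjusted p = 0.0203) and the mean of probe sets (log2 0.67, adjusted p = 0.00348), and also without siNEG TAM replicate 3, the highest array of its group (log2 0.90, adjusted p = 0.00999). At 4 h the signals were 2995, 2542 and 3437 units in siSTAT3 TAM cells, 2801, 2705 and 3299 in siSTAT3 EtOH cells, 3621, 3317 and 3539 in siNEG TAM cells and 4215, 4199 and 4356 in siNEG EtOH cells. All siSTAT3 EtOH arrays were below all siNEG EtOH arrays, with a difference that was just short of the threshold (log2 -0.54, adjusted p = 0.0534).

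ABCG2, the breast cancer resistance protein, which exports drugs, urate and porphyrins, read 90.5 and 119 units in siSTAT3 TAM cells at 24 h, against 74.5, 134 and 151 in siSTAT3 EtOH cells, and 38.4, 44.8 and 47.2 units in siNEG TAM cells, against 90.5, 83.3 and 88.4 in siNEG EtOH cells. These signals are low, and all siNEG arrays were below 100 units, so no fold is given. The siNEG TAM arrays were below every other 24 h array. ABCG2 fell with TAM in siNEG cells (log2 -1.01, SE 0.25, adjusted p = 0.0132), and with TAM it was higher in siSTAT3 cells (log2 1.26, SE 0.28, adjusted p = 0.00586). The TAM call was lost without siNEG TAM replicate 1 (log2 -0.93, adjusted p = 0.0578) and the siSTAT3 call without siSTAT3 TAM replicate 3 (log2 1.06, adjusted p = 0.101). The TAM effect in siSTAT3 cells was -0.15 (adjusted p = 0.916) and the interaction 0.87 (adjusted p = 0.298), so a difference between the TAM effects was not shown. At 4 h ABCG2 read 70.0, 60.7 and 73.4 units in siSTAT3 TAM cells, 89.5, 97.8 and 74.3 in siSTAT3 EtOH cells, 49.8, 54.1 and 45.7 in siNEG TAM cells and 58.8, 68.5 and 33.1 in siNEG EtOH cells, and no comparison at 4 h passed.

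ABCC10, a broad drug and conjugate pump also known as MRP7, lay above its siNEG signals in siSTAT3 cells in every pair of groups, and 3 of these differences passed the test. It read 1164 and 1131 units in siSTAT3 TAM cells at 24 h, against 739, 754 and 842 in siNEG TAM cells, and 1044, 1064 and 1111 units in siSTAT3 EtOH cells, against 806, 874 and 876 in siNEG EtOH cells. At 4 h it read 966, 903 and 1008 units in siSTAT3 TAM cells, against 610.1, 701 and 738 in siNEG TAM cells, and 917, 1073 and 959.7 units in siSTAT3 EtOH cells, against 749.9, 705 and 659.6 in siNEG EtOH cells. In all of these pairs every siSTAT3 array was above every siNEG array. The difference passed with TAM at 24 h (log2 0.56, SE 0.10, adjusted p = 0.000897), with TAM at 4 h (log2 0.49, SE 0.090, adjusted p = 0.00196) and with EtOH at 4 h (log2 0.48, SE 0.090, adjusted p = 0.00572), and missed with EtOH at 24 h (log2 0.33, SE 0.090, adjusted p = 0.0789). No TAM effect on ABCC10 passed (log2 0.10 in siSTAT3 and -0.13 in siNEG cells at 24 h). With the mean of its 2 probe sets the 4 h calls were lost, with TAM (log2 0.35, adjusted p = 0.0582) and with EtOH (log2 0.37, adjusted p = 0.0735). With only the arrays of each comparison fitted, all 3 were lost (adjusted p 0.139 with TAM at 24 h, 0.188 with TAM at 4 h and 0.253 with EtOH at 4 h).

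The other classical multidrug pumps differed little. ABCC1, or MRP1, which exports glutathione conjugates and leukotrienes, read 1845 and 1911 units in siSTAT3 TAM cells at 24 h, against 1728, 1707 and 1867 in siSTAT3 EtOH cells, and 1772, 1745 and 1802 units in siNEG TAM cells, against 1821, 1754 and 1711 in siNEG EtOH cells. At 4 h it read 2053, 2135 and 1779 units in siSTAT3 TAM cells, 2085, 2008 and 2068 in siSTAT3 EtOH cells, 1934, 1815 and 1922 in siNEG TAM cells and 1888, 1955 and 2001 in siNEG EtOH cells. The TAM effect in siNEG cells at 24 h was 0.0094, with a 95% confidence interval of -0.15 to 0.16, and that in siSTAT3 cells 0.089, with an interval of -0.085 to 0.26. ABCC1 passed in none of the 12 comparisons (lowest adjusted p = 0.0744). ABCC4, which exports cyclic nucleotides and prostaglandins, had group means of 669.7 to 799.8 units, and ABCC5, another cyclic nucleotide exporter, 788 to 927 units, with no comparison past the threshold (lowest adjusted p 0.494 and 0.586).

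ABCB1, or P-glycoprotein, the best known multidrug pump, was below 100 units everywhere. Its arrays read 48.1 and 43.6 units in siSTAT3 TAM cells, 56.9, 41.1 and 41.4 in siSTAT3 EtOH cells, 44.7, 64.5 and 54.7 in siNEG TAM cells and 54.1, 36.2 and 45.0 in siNEG EtOH cells at 24 h. At 4 h they read 55.6, 42.2 and 48.3 units in siSTAT3 TAM cells, 61.3, 35.2 and 71.0 in siSTAT3 EtOH cells, 56.8, 51.1 and 45.9 in siNEG TAM cells and 66.1, 40.0 and 54.9 in siNEG EtOH cells. All groups overlapped, and no comparison passed (log2 -0.28 to 0.28, lowest adjusted p = 0.598).

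**Figure D4:**
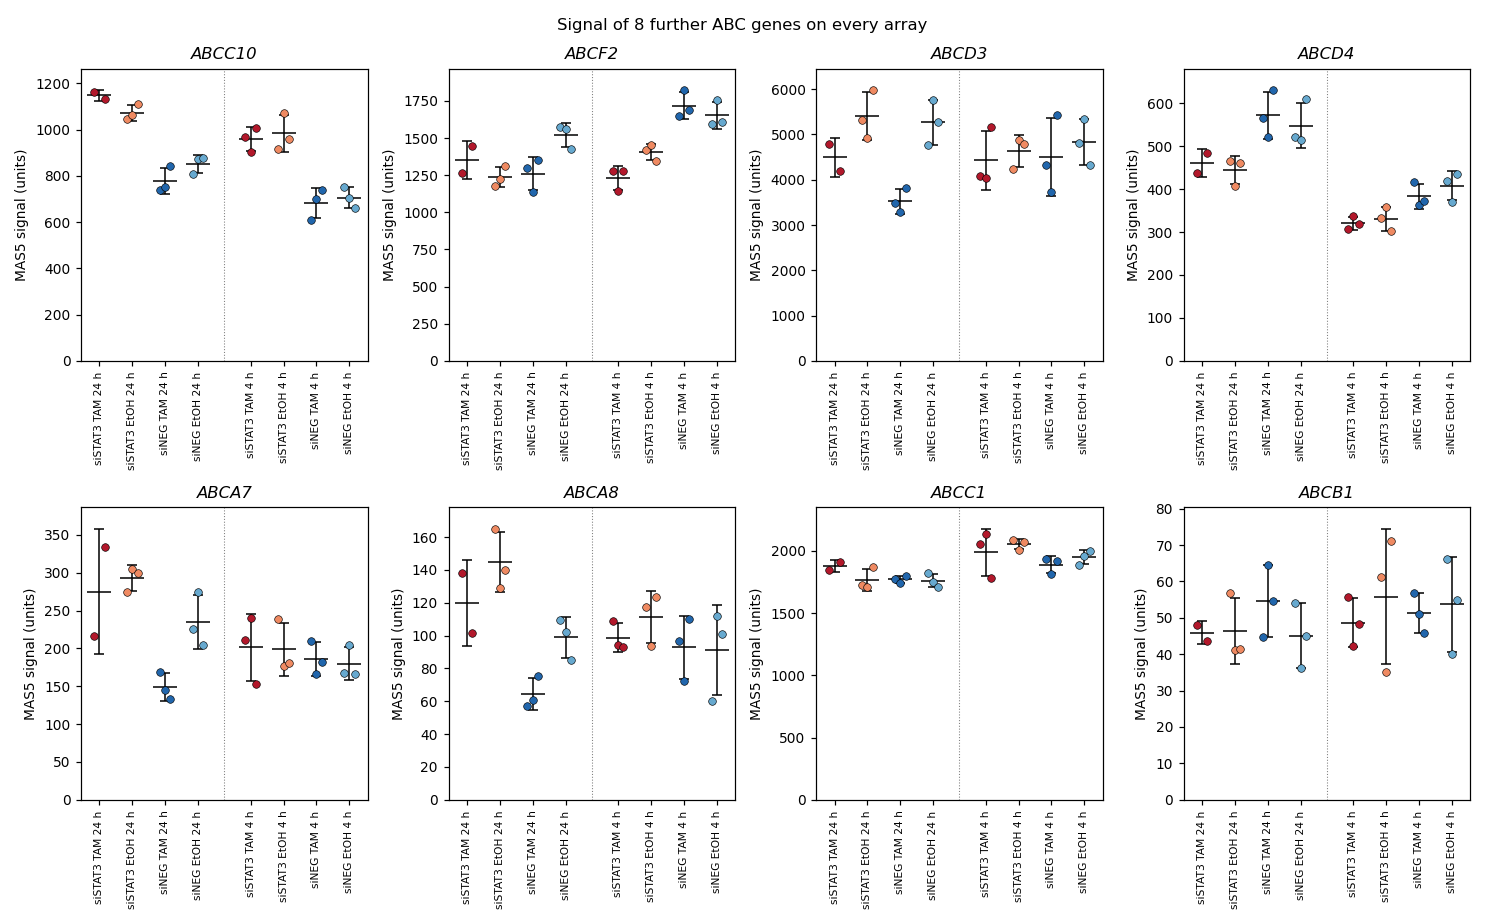
MAS5 signal of 8 further ABC genes on every array (points), with the group mean and SD (lines), at 24 h and at 4 h. ABCC10 was higher in siSTAT3 than in siNEG cells in every pair of groups, ABCD4 was higher at 24 h than at 4 h, and ABCB1 stayed below 100 units on all arrays.

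Among the transporters of organelles, ABCB6 handles porphyrins in mitochondria and other membranes. It read 349 and 274 units in siSTAT3 TAM cells at 24 h, against 500.4, 429.6 and 460.3 in siSTAT3 EtOH cells, and 326, 360.4 and 311 units in siNEG TAM cells, against 606, 548 and 474 in siNEG EtOH cells. TAM arrays were below EtOH arrays without overlap in both kinds of cell, 1.49-fold in siSTAT3 cells (log2 -0.58, SE 0.13, adjusted p = 0.0229) and 1.63-fold in siNEG cells (log2 -0.70, SE 0.11, adjusted p = 0.000331). ABCB6 was the 1 member called for TAM in siSTAT3 cells, and its interaction was 0.12 with a 95% confidence interval of -0.23 to 0.48 (adjusted p = 0.829). The siSTAT3 call was lost without siSTAT3 TAM replicate 3 (log2 -0.41, adjusted p = 0.384), siSTAT3 EtOH replicate 1 (log2 -0.52, adjusted p = 0.0922) or siSTAT3 EtOH replicate 3 (log2 -0.58, adjusted p = 0.0661).

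At 4 h ABCB6 read 346, 333 and 385 units in siSTAT3 TAM cells, 400.1, 342 and 405 in siSTAT3 EtOH cells, 389.7, 405 and 378 in siNEG TAM cells and 401, 422 and 418 in siNEG EtOH cells, with no TAM or siSTAT3 effect past the threshold. In siNEG cells with EtOH it was higher at 24 than at 4 h (log2 0.39, adjusted p = 0.0402), a call that was lost without any one of 5 of the 6 arrays (siNEG EtOH replicates 1, 2 and 3 at 4 h and 1 and 2 at 24 h), with adjusted p values of 0.0857 to 0.175. A second ABCB6 probe set had a mean of only 23.5 units and a TAM value of the other sign, not past the threshold (log2 1.37, adjusted p = 0.218 in siNEG cells at 24 h). The mitochondrial transporters ABCB8 and ABCB10, the second of which is required for heme synthesis in red cell precursors, had group means of 118 to 189 and 3229.8 to 4078 units. Neither passed in any comparison (lowest adjusted p 0.208 for ABCB8 and 0.340 for ABCB10).

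ABCD3, which carries fatty acyl-CoA into peroxisomes and is their main membrane protein, read 4799.6 and 4187 units in siSTAT3 TAM cells at 24 h, against 5328, 4914 and 5977 in siSTAT3 EtOH cells, and 3476, 3279 and 3810.5 units in siNEG TAM cells, against 4769, 5754 and 5269 in siNEG EtOH cells. TAM arrays were below EtOH arrays in both kinds of cell. The difference passed in siNEG cells (log2 -0.58, SE 0.14, adjusted p = 0.0115) and not in siSTAT3 cells (log2 -0.27, SE 0.16, adjusted p = 0.566), with an interaction of 0.31 (adjusted p = 0.570). The siNEG call was lost without siNEG TAM replicate 2 (log2 -0.53, adjusted p = 0.0523) or siNEG EtOH replicate 2 (log2 -0.51, adjusted p = 0.0587). At 4 h ABCD3 read 4074, 4035 and 5175 units in siSTAT3 TAM cells, 4238, 4868 and 4795 in siSTAT3 EtOH cells, 4333, 3724 and 5427 in siNEG TAM cells and 4811, 5341 and 4333 in siNEG EtOH cells, and the groups overlapped.

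ABCD4, which releases cobalamin from lysosomes, was called for time and in no TAM comparison. It read 466, 408 and 460.1 units in siSTAT3 EtOH cells at 24 h, against 332, 358 and 302 at 4 h, and 521, 514 and 609 units in siNEG EtOH cells at 24 h, against 418, 369.6 and 436 at 4 h. The times did not overlap, and the difference was 1.34-fold in siSTAT3 cells (log2 0.43, SE 0.10, adjusted p = 0.0134) and 1.34-fold in siNEG cells (log2 0.43, SE 0.10, adjusted p = 0.0154). The siSTAT3 call was lost without siSTAT3 EtOH replicate 3 of 4 h or replicate 1 or 3 of 24 h (adjusted p 0.0557 to 0.0683), and the siNEG call without siNEG EtOH replicate 2 of 4 h (log2 0.36, adjusted p = 0.0823) or replicate 3 of 24 h (log2 0.35, adjusted p = 0.0806). With TAM, ABCD4 read 438 and 483 units in siSTAT3 and 566, 521 and 630.3 in siNEG cells at 24 h, and 306, 336 and 319 units in siSTAT3 and 416, 362 and 371 in siNEG cells at 4 h.

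ABCE1, which splits ribosomes for recycling, and the ABCF proteins, which act in translation control, have no membrane part. ABCF2 read 1276, 1140.3 and 1280.2 units in siSTAT3 TAM cells at 4 h, against 1646, 1822 and 1688 in siNEG TAM cells, and 1417, 1454 and 1346 units in siSTAT3 EtOH cells, against 1593, 1759 and 1611 in siNEG EtOH cells. At 4 h every siSTAT3 array was below every siNEG array. The difference passed with TAM (log2 -0.48, SE 0.089, adjusted p = 0.00217) and not with EtOH (log2 -0.23, SE 0.089, adjusted p = 0.216). With EtOH a further probe set did pass (log2 -0.41, adjusted p = 0.0128) and another did not (log2 -0.42, adjusted p = 0.247). The latter also missed the threshold with TAM at 4 h (log2 -0.48, adjusted p = 0.112). At 24 h ABCF2 read 1264 and 1445 units in siSTAT3 TAM cells, 1176, 1224 and 1315 in siSTAT3 EtOH cells, 1297, 1135 and 1349 in siNEG TAM cells and 1575, 1561 and 1429 in siNEG EtOH cells. The TAM groups overlapped between siSTAT3 and siNEG cells, and the TAM value in siNEG cells just missed the threshold (log2 -0.27, SE 0.089, adjusted p = 0.0580). ABCE1 had group means of 4087 to 5582 units, ABCF1 1609 to 2105 and ABCF3 301 to 378, and none of the 3 passed in any comparison (lowest adjusted p 0.0784, 0.161 and 0.389).

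**Figure D5:**
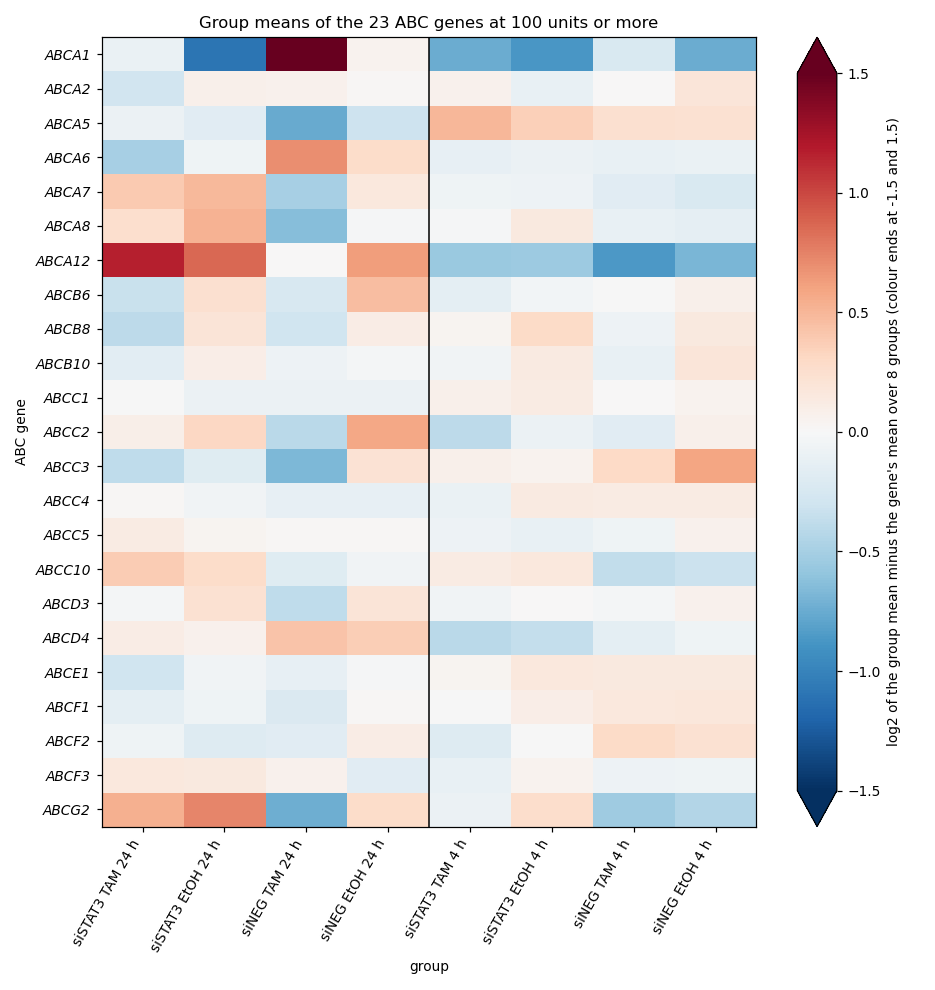
Log2 of the group mean minus the mean of the 8 groups, for the 23 ABC genes at 100 units or more (colours end at -1.5 and 1.5). Red is above and blue below a gene's own mean. The siNEG TAM column at 24 h holds the highest mean of ABCA1, ABCA6 and ABCD4 and the lowest of ABCA5, ABCA7, ABCA8, ABCC2, ABCC3, ABCD3, ABCF1 and ABCG2.

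The 9 genes at 100 units or more that passed in no comparison, ABCC1 and the 8 others just given (ABCA2, ABCB8, ABCB10, ABCC4, ABCC5, ABCE1, ABCF1 and ABCF3), had log2 differences between -0.59 and 0.35. The 19 genes whose main probe set was below 100 units in every group were ABCA3, ABCA4, ABCA9, ABCA13, ABCB1, ABCB4, ABCB5, ABCB9, ABCB11, ABCC8, ABCC9, ABCC11, ABCC12, ABCC13, ABCD2, ABCG1, ABCG4, ABCG5 and ABCG8. They include the surfactant lipid pump ABCA3, the retinal pump ABCA4, the hepatic bile transporters ABCB4 and ABCB11, the potassium channel subunits ABCC8 and ABCC9 and the sterol exporters ABCG5 and ABCG8 of liver and gut. ABCG1, the sterol exporter that works beside ABCA1, had group means of 57.1 to 90.1 units on its main probe set, with a TAM value in siNEG cells at 24 h of -0.21 (SE 0.25, adjusted p = 0.718). None of the 19 passed in any comparison on its main probe set (lowest adjusted p = 0.115). A further probe set reached 113 units in its highest group for ABCG1 and 109.9 units for ABCC9.

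Promoter windows were searched for 3 motifs. The STAT and AP-1 motifs were taken since the study silenced STAT3 and related it to FOS, a part of AP-1, and an E-box was searched as well. The windows ran from 250 bases before to 50 bases after each annotated start in RefSeq (GRCh38.p14), and 33 of the 42 genes matched, with 49 of 35116 windows. The STAT motif TTCNNNGAA was in 7.66% of all windows and in 2 of the 49 ABC windows, those of ABCC5 and ABCG2. The AP-1 motif TGANTCA was in 7.71% of all windows and in 5 of the 49 ABC windows (ABCA5, ABCB1, ABCB11, ABCC11 and ABCD2). This pattern allows any middle base, which was G in ABCA5 and ABCD2, T in ABCB1 and ABCC11 and A in ABCB11. The E-box CACGTG was in 7.26% of all windows and in 9 of the 49 ABC windows, from 8 genes (ABCA1, ABCA9, ABCA12, ABCB6, ABCB9, ABCC10, ABCF1 and ABCG2). Both strands were searched, and no motif overlapped another in the stretches below. They are shown for the genes called at 24 h that hold a motif, with the STAT motif for ABCG2, and for ABCC5 as the other gene with a STAT motif. Capitals mark the motif:
ABCA1: gggccccggctcCACGTGctttctgctgag
ABCA12: tgattaacaaatCACGTGgtagtcaatctt
ABCA5: ggtcacccgcacTGAGTCAacagactgagc
ABCB6: tcccgccctgggCACGTGaccaagccggct
ABCC10: gagcgaatactcCACGTGagaggttataaa
ABCG2: aagcatccactTTCTCAGAAtcccattcac
ABCC5: gtcaccggcgcTTCTGGGAAatgtagtcct
These stretches lie at chr9:104928285-104928314 (ABCA1), chr2:215032221-215032250 (ABCA12), chr17:69327090-69327119 (ABCA5), chr2:219219097-219219126 (ABCB6), chr4:88159334-88159363 (ABCG2) and chr3:184018018-184018047 (ABCC5) on the minus strand and at chr6:43427368-43427397 (ABCC10) on the plus strand. The capitals start at position -147 (ABCA1), -152 (ABCA12), -156 (ABCB6), -161 (ABCC10), -62 (ABCG2) and -152 (ABCC5) relative to an annotated start, taken as 0, and at position 26 after the start for ABCA5. Genes with the E-box moved in different directions, ABCA1 higher and ABCA12, ABCB6 and ABCG2 lower with TAM in siNEG cells at 24 h. Of the genes with a STAT motif, ABCG2 was called and ABCC5 passed in no comparison. A match describes the letters of the window and is not evidence of binding. The study found most STAT3 sites in introns or away from gene features, which these windows mostly do not cover. A window without the STAT motif therefore does not show that a gene lacks a STAT3 site.

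Genes known to work with the ABC proteins were taken from lists of their pathways. With TAM in siNEG cells at 24 h, 6.06% of all genes rose and 9.31% fell. Among genes at 100 units or more in at least 1 group, 9.71% rose and 15.1% fell. No list was tested against these shares. Of 16 measured genes of sterol efflux and the liver X receptor pathway, 2 rose and 2 fell with TAM in siNEG cells at 24 h. NPC1, which moves cholesterol out of lysosomes, was higher (log2 1.43, SE 0.093, adjusted p = 1.27e-08), and the lipid synthesis regulator SREBF1 (log2 -0.95, SE 0.13, adjusted p = 7.71e-05) and the HDL receptor SCARB1 (log2 -0.72, SE 0.12, adjusted p = 0.000427) were lower. Of 17 genes of xenobiotic sensing and glutathione conjugation, 1 rose and 4 fell, among them GCLC, the limiting enzyme of glutathione synthesis (log2 -1.02, SE 0.078, adjusted p = 8.56e-08), glutathione reductase, GSR (log2 -1.01, SE 0.091, adjusted p = 6.07e-07), and the quinone reductase NQO1 (log2 -0.68, SE 0.086, adjusted p = 3.06e-05). Of the conjugate pumps, ABCC2 and ABCC3 were lower in the same cells, while ABCC1 (log2 0.0094, adjusted p = 0.968) and ABCC10 (log2 -0.13, adjusted p = 0.452) did not pass.

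Of 13 genes of peroxisomes, 4 fell and none rose in the same comparison (9.31 and 6.06% of all genes). Examples were SLC27A2, which activates very long chain fatty acids (log2 -1.54, SE 0.10, adjusted p = 1.04e-08), catalase, CAT (log2 -0.57, SE 0.083, adjusted p = 0.000124), and the peroxisome assembly gene PEX3 (log2 -0.37, SE 0.093, adjusted p = 0.0142). Of 14 genes of mitochondrial iron-sulfur and heme synthesis, 2 rose and 1 fell (6.06 and 9.31% of all genes). ALAS1, the first enzyme of heme synthesis, was higher (log2 0.86, SE 0.080, adjusted p = 9.64e-07), as was the mitochondrial iron importer SLC25A37 (log2 0.76, SE 0.093, adjusted p = 2.33e-05), and FECH, the last enzyme, was lower (log2 -0.48, SE 0.10, adjusted p = 0.00385). None of 16 genes of ribosome recycling and translation control passed in this comparison (15.4% of all genes). Their median log2 was -0.024, with ETF1, which ends translation at stop codons, at -0.22 (adjusted p = 0.0520). The 2 channel partners of ABCC8 and ABCC9 were below 100 units.

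Of the 3 ABC genes with symbols outside the naming rule, the peptide transporter subunits TAP1 and TAP2 were above 100 units and CFTR was not. TAP1 was higher with TAM in siNEG cells at 4 h (log2 0.49, SE 0.094, adjusted p = 0.00668). At 24 h TAP2 was higher with TAM in siNEG cells (log2 0.26, SE 0.077, adjusted p = 0.0370), and TAP1 was higher in siSTAT3 cells (log2 0.68, SE 0.10, adjusted p = 0.00168) with a smaller value in siNEG cells that did not pass (log2 0.21, SE 0.094, adjusted p = 0.192). Of 11 genes of peptide loading, 2 fell with TAM in siNEG cells at 24 h (9.31% of all genes). They were the proteasome subunit PSMB10 (log2 -0.40, SE 0.092, adjusted p = 0.00739) and the chaperone CANX (log2 -0.26, SE 0.075, adjusted p = 0.0318). In siSTAT3 cells at 24 h 2 rose (2% of all genes). With EtOH in siSTAT3 cells TAP1 was lower at 24 than at 4 h (log2 -0.32, SE 0.094, adjusted p = 0.0382). The difference between the TAM effects on TAP1 at 24 h was 0.47 (adjusted p = 0.0827).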

How the data were processed

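The table holds MAS5 signals of 23 Affymetrix arrays. The authors deposited them as linear intensity values, background corrected and normalized with MAS5, whose version and scaling target are not given in the sources used here. No column of sample values was left unused (0). The array annotation gave 1 gene to 41097 probe sets, several to 1801 and none to 11777, and only the first kind was used.

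Groups came from the labels. The log2 signals, with nothing added and no filter, were fitted with limma 3.58.1 in R 4.3.3, with 1 mean per group over all 8 groups (15 residual and 1.27 prior degrees of freedom), and p-values were adjusted by Benjamini-Hochberg over 54675 probe sets. A gene was called at an adjusted p under 0.05 on its main probe set. All log2 values are differences of mean log2 signals. Signals are relative, so levels were not compared between genes, and 100 units was taken as the limit of a low signal. The highest correlation of any 2 arrays was 0.954, so no array repeats another. The fit was tested on simulated data, with 100 of 54675 probe sets changed at each size in siNEG TAM cells at 24 h. The changed probe sets all had a mean of 100 units or more, so the numbers do not cover dimmer genes. A log2 change of 0.5 was called for 28 of 100 for the TAM effect and 3 of 100 for the interaction. With a log2 change of 1 these numbers were 83 and 55. Fewer probe sets changed than in the data, so the share missed there is not known. A comparison that did not pass does not show that a gene was unchanged.

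Values on every array are given for genes at 100 units or more called in at least 1 comparison, up to 20, and for ABCB1, ABCC1 and ABCG2 in any case, which named 16 genes. Up to 3 genes per pathway list are named, those with the smallest adjusted p for TAM in siNEG cells at 24 h. The members, lists and motifs were chosen with earlier results of these data known. The alternatives were quantile normalization, log2(signal + 16), a filter on the mean signal, replicate number as a block, the arrays of the comparison alone, another prior, the thresholds of the study's methods, a mean over probe sets and leaving out single arrays.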

Additional observations from a re-analysis of the deposited data

Results flagged for a closer look

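The interaction at 24 h, the difference between the TAM effects in siSTAT3 and siNEG cells, passed for 5 ABC genes (5.91% of all genes). The difference was -2.64 on the log2 scale for ABCA1 (SE 0.38, adjusted p = 0.000338), 0.92 for ABCA12 (SE 0.15, adjusted p = 0.00151), 0.77 for ABCC2 (SE 0.15, adjusted p = 0.00688), 0.53 for ABCA5 (SE 0.14, adjusted p = 0.0352) and -0.87 for ABCA6 (SE 0.24, adjusted p = 0.0498). ABCA1 was raised by TAM in siNEG cells, where ABCA12, ABCC2 and ABCA5 were lowered, and ABCA6 passed for TAM in neither kind of cell.

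Further probe sets of ABC genes, which the comparisons do not use, also carried signals. ABCC9, the SUR2 subunit of potassium channels, has a probe set that read 15.3 and 7.52 units in siSTAT3 TAM cells at 24 h, 17.1, 18.4 and 4.17 in siSTAT3 EtOH cells, 115, 108 and 106 in siNEG TAM cells and 23.1, 25.4 and 26.7 in siNEG EtOH cells. Only the siNEG TAM arrays were above 100 units. The fitted TAM effect in siNEG cells was 2.14 (SE 0.55, adjusted p = 0.0169), but against arrays below 100 units it bounds the difference at only 1.10-fold or more. The interaction did not pass (log2 -2.16, SE 0.83, adjusted p = 0.212). The main probe set of ABCC9 did not show this (log2 -0.24, adjusted p = 0.734), and 2 others with every group mean below 100 units had TAM values in siNEG cells of the same sign (log2 2.26, adjusted p = 0.0490 and log2 2.55, adjusted p = 0.0483). These probe sets were looked at after their values were seen.

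A further probe set of ABCF2 read 220.4, 194 and 256 units in siNEG TAM cells at 24 h, against 395, 323 and 324 in siNEG EtOH cells, a TAM effect of -0.64 (SE 0.17, adjusted p = 0.0176) where the main probe set had just missed the threshold. Another, with a mean of 757 units, did not pass for this effect (log2 -0.24, adjusted p = 0.0867) but passed for siSTAT3 with EtOH at 4 h (log2 -0.41, adjusted p = 0.0128), where the main probe set did not. A further probe set of ABCD3 had an interaction of 0.50 at 24 h (SE 0.12, adjusted p = 0.0265), with TAM effects of log2 -0.28, SE 0.091, adjusted p = 0.164 in siSTAT3 cells and log2 -0.78, SE 0.082, adjusted p = 3.32e-06 in siNEG cells. The interaction of its main probe set was 0.31 (adjusted p = 0.570).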

How the results depend on the processing

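The fit was repeated with 8 other settings and without each array in turn. Among these, the share of all genes called was computed only for the limits of the study's methods. The other counts are therefore not read as results about the ABC genes. Of 625 alternatives for 42 gene results, 504 kept their direction and their side of the threshold, 111 lost the call, 5 gained one and 5 changed sign. With quantile normalization and with log2(signal + 16), the siSTAT3 effect with EtOH at 4 h gave 2 and 3 called ABC genes in place of 1, and the counts of the other comparisons stayed within 1.5 times. Keeping only probe sets with a mean of at least 100 units, which tests 22 ABC genes, gave 3 genes there, 3 in place of 1 for TAM in siSTAT3 cells at 24 h, 3 in place of 1 for siSTAT3 with EtOH at 24 h, 4 in place of 2 for siSTAT3 with TAM at 4 h, and 8 in place of 5 and 7 in place of 4 for time in siNEG and siSTAT3 cells.

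Fitting only the arrays of a comparison gave 3 in place of 9 genes for TAM in siNEG cells at 24 h, 2 in place of 9 for siSTAT3 with TAM at 24 h, 3 in place of 5 for the 24 h interaction, 1 gene for time in siNEG and 1 in siSTAT3 cells, and 0 for TAM in siSTAT3 cells at 24 h and for siSTAT3 with EtOH at 4 h, with EtOH at 24 h and with TAM at 4 h; these fits have fewer residual degrees of freedom. The limits of the study's methods, an unadjusted p under 1e-04 and a log2 difference beyond 0.5, gave 5 genes for TAM in siNEG cells at 24 h (6.11% of all genes). They gave 5 for siSTAT3 with TAM at 24 h (7.15%), 2 for the 24 h interaction (2.88%) and 2 for time in either kind of cell. They gave 0 for TAM in siSTAT3 cells at 24 h (1.21%) and for siSTAT3 with EtOH at 4 h (1.48%), with EtOH at 24 h (1.25%) and with TAM at 4 h (3.51%). An intensity trend with a robust prior gave 2 genes for siSTAT3 with EtOH at 4 h, 2 for TAM in siSTAT3 cells at 24 h, 3 for siSTAT3 with EtOH at 24 h and 7 for time in siSTAT3 cells.

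Averaging the log2 signals of all probe sets of a gene gave 1 gene in place of 0 for TAM in siNEG cells, for TAM in siSTAT3 cells and for the interaction at 4 h, 2 for siSTAT3 with EtOH at 4 h, 0 for TAM in siSTAT3 cells and for siSTAT3 with EtOH at 24 h, and 3 and 7 for time in siNEG and siSTAT3 cells. It ended every call of ABCA5, both of ABCD4 (adjusted p = 0.485 in siSTAT3 and 0.0596 in siNEG cells), that of ABCA8 (adjusted p = 0.113), the 24 h interaction of ABCA1 and the 4 h calls of ABCC10. It turned the sign of ABCB6, whose second probe set is dim: 0.20 for TAM in siSTAT3 cells and 0.34 in siNEG cells at 24 h, -0.14 for the interaction and -0.64 for time in siNEG cells. Without siSTAT3 TAM replicate 2 or 3 at 24 h the ABCB6 interaction, which is not called, was -0.051 or 0.30.

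Leaving out each array in turn gave 7 to 9 genes for TAM in siNEG cells at 24 h, 6 to 10 for siSTAT3 with TAM and 3 to 5 for the interaction at 24 h, 0 to 2 for TAM in siSTAT3 cells at 24 h, 0 to 1 for siSTAT3 with EtOH at 24 h, 1 at 4 h, 2 to 3 with TAM at 4 h, 4 to 5 for time in siNEG cells, 2 to 4 in siSTAT3 cells and 0 in the other 4 h comparisons. Where this leaves 1 siSTAT3 TAM array at 24 h, that array is assumed to vary like the other groups. Replicate numbers recur across groups, but no source used here ties them to a shared culture or day. After subtraction of group means, 77 same-numbered pairs of arrays from different groups had a median correlation of 0.036, against -0.024 for the remaining pairs. Of the 77, 16 exceeded 0.1. These values cannot show whether same-numbered arrays came from a shared culture or day. With the replicate number as a block, the siSTAT3 effect with EtOH at 4 h had 2 genes and the counts of the other 11 comparisons stayed within 1.5 times. At the level of single genes the block removed the interaction of ABCA6 (log2 -0.85, adjusted p = 0.0864) and the time effect on ABCB6 in siNEG cells (log2 0.39, adjusted p = 0.0528) and added the interaction of ABCC3 (log2 0.70, adjusted p = 0.0467). The number of arrays, with 2 in 1 group, limits the precision. Where no reason is given for a change, the cause was not tested.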
